A study of Mus musculus with 8 samples.

Results

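The genes described here are 36 genes of the centromere, the kinetochore, the chromosomal passenger complex and the spindle assembly checkpoint. They were taken by name from the deposited count table, which lists 55276 gene symbols, and all 36 were found and had enough counts to be tested among 17344 genes. Cells of the mouse esophageal epithelium, gated on integrin-b1 to select basal cells, had been sorted by Cyto-ID, a fluorescent dye that accumulates in autophagic vesicles, and their RNA was sequenced in bulk. The mice were of strain C57BL6 and 14 to 15 weeks old. From each of 4 animals (2 females, Female1 and Female2, and 2 males, Male1 and Male2), live cells that were positive for integrin-b1 and negative for DAPI were divided into a Cyto-ID Low and a Cyto-ID High fraction. This gave 4 libraries per fraction, and the labels name no genetic change or drug in either of them. The series asks how cells of this gate with many autophagic vesicles differ from those with few, and the comparison below is of Cyto-ID High with Cyto-ID Low.

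The kinetochore is the protein assembly that joins a chromosome to spindle microtubules during mitosis. It is built on nucleosomes that carry the histone H3 variant CENP-A, through an inner layer of constitutive centromere proteins and an outer layer that grips microtubules. Kinetochores that lack microtubules run the spindle assembly checkpoint, which holds back the anaphase-promoting complex, and the chromosomal passenger complex corrects faulty attachments. Many of these genes are transcribed mainly in late S, G2 and M phase. In squamous epithelium dividing cells lie in the basal layer.

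The 8 libraries held 26285150 to 29301054 counts each. Values below are CPM, which are counts scaled to library size, with TMM, edgeR's correction for library composition, and lists of 4 values follow the order Female1, Female2, Male1, Male2. Integrin-b1 sorting was meant to select basal cells, but a list of 10 suprabasal keratinocyte genes summed to 8777 to 25811 CPM in Low and to 141584 to 243180 CPM in High, and all 10 were higher there. All 10 basal keratinocyte genes listed were lower in High and summed to 22032 to 26255 CPM in Low and 2882 to 4577 CPM in High. The part of this shift in the results below was not tested. In bulk libraries, fewer cells of a type and less RNA per cell cannot be told apart. The High library of Male2 stood apart in markers of other cells, at 46.9 CPM summed over 10 fibroblast genes against 238 to 737 in the other High libraries. In the same way, 10 leukocyte genes summed to 7.05 CPM there against 43.4 to 125 CPM. Gastric epithelium genes summed to at most 1.39 CPM except in Female2, at 19.8 CPM in Low and 118 CPM in High. None of the marker genes was at 0 in every library.

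Transcripts of 31 of the 36 genes fell in Cyto-ID High, none rose, and 5 did not pass the test (edgeR's quasi-likelihood test with sex in the model, Benjamini-Hochberg adjusted p under 0.05 over all genes tested). The fractions differed widely over the transcriptome: 48.7% of all genes tested passed, 25.3% lower and 23.4% higher in High. The median difference (High minus Low) was -2.29 on the log2 scale over the 36 genes and -0.09 over all genes. Each animal was on the same side, with medians of -1.96 and -2.21 in the females 1 and 2 and of -2.43 and -2.51 in the males 1 and 2. At least 4-fold lower in High were 22 of the 36 genes, against 5.88% of all genes tested. For 30 genes all 4 High libraries lay below all 4 Low libraries, which held for 24.9% of all genes tested. All 31 genes that fell were lower in High in each of the 4 animals. With both libraries of Male2 left out 32 of the 36 passed as lower, with a median of -2.16. No gene of the 36 was higher at an unadjusted p under 0.05, and DESeq2, limma-voom and the fit with the animal as a replicate block also called 0 higher. In the blocked fit 1 gene, Cenpb, was higher at an unadjusted p under 0.05.

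**Figure D1:**
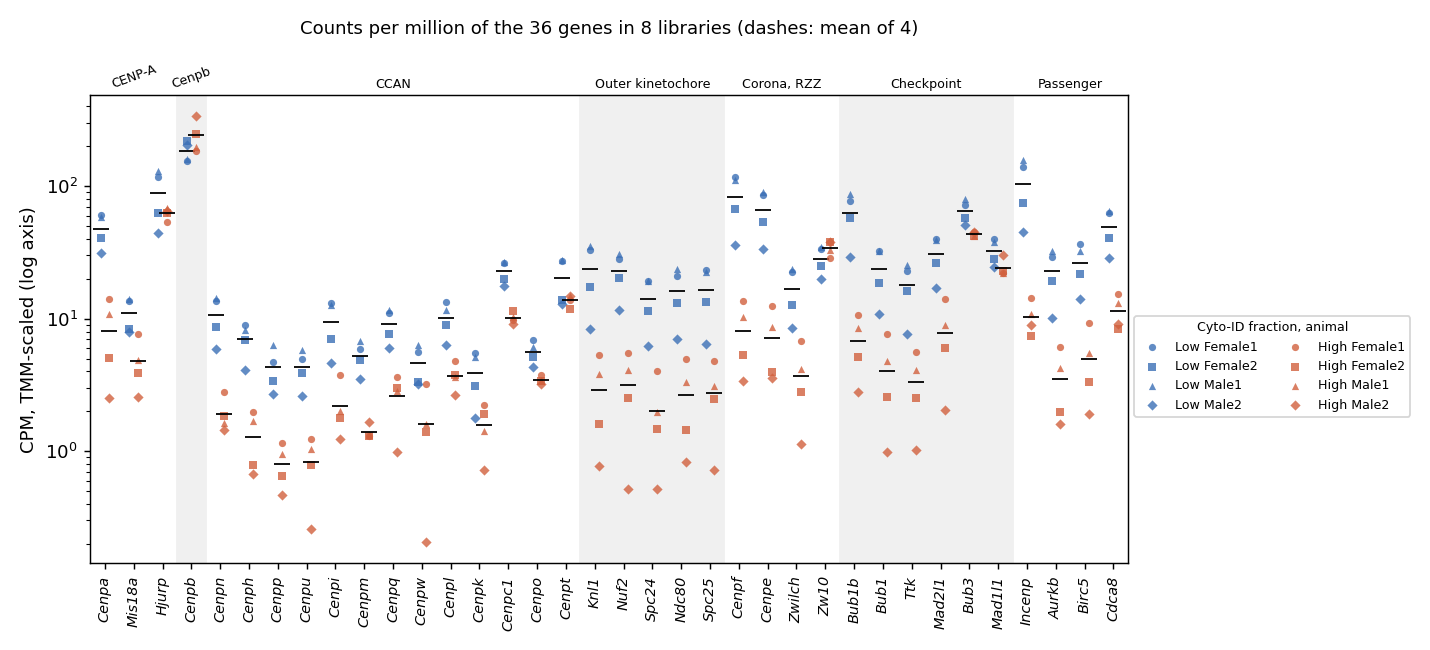
Level of each of the 36 genes in TMM-scaled CPM (log axis) in each of the 8 libraries, Low in blue and High in red, with a symbol per animal and a dash at the mean of 4. CCAN is the constitutive centromere network and RZZ the ROD-ZW10-Zwilch complex. High points lie below Low points without overlap for 30 genes, and the fractions overlap for Cenpk, Cenpt, Hjurp, Mad1l1, Zw10 and Cenpb.

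At the centromeric chromatin itself, 2 of the 3 genes for CENP-A and its deposition fell, with a median of -1.24, and Cenpb did not pass. Cenpa, the histone variant itself, was at 60.3, 40.4, 59.0 and 31.4 CPM in Low and at 14.0, 5.05, 10.8 and 2.52 CPM in High. The Low library of Male2 was the lowest of its fraction and still above every High library. The difference was -2.57 (SE 0.46, edgeR adjusted p = 0.00124), or 5.94 times lower. Mis18a, which helps to license the centromere for new CENP-A, was at 13.7, 8.36, 14.1 and 7.97 CPM in Low and 7.72, 3.88, 4.84 and 2.57 CPM in High. Its fractions did not overlap and its difference was smaller, -1.24 (SE 0.33, edgeR adjusted p = 0.0114). Without the Low library of Female1 the difference was -1.16, with an edgeR adjusted p of 0.0510. Hjurp, the chaperone that deposits CENP-A, was at 116, 62.4, 129.8 and 44.5 CPM in Low and 53.9, 62.7, 68.6 and 65.2 CPM in High. High was below Low in the animals numbered 1, about equal to it in Female2 and above it in Male2, and the difference of -0.50 (SE 0.31, edgeR adjusted p = 0.221) did not pass. Cenpb, which binds a DNA motif of centromeric satellite repeats, was at 156, 218, 159 and 204 CPM in Low and 185, 249.6, 197 and 336 CPM in High. These ranges overlapped, and its difference of 0.39 (SE 0.22, edgeR adjusted p = 0.180) was the highest of the 36.

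The inner layer, the constitutive centromere-associated network, was measured through 13 genes. Of these 12 fell, with a median of -1.82 over the 13 and a span from -2.48 for Cenpn to -0.56 for Cenpt. Cenpn recognises the CENP-A nucleosome and was at 13.6, 8.66, 14.2 and 5.89 CPM in Low against 2.78, 1.83, 1.64 and 1.44 CPM in High. No High library reached the lowest Low library, and the difference was -2.48 (SE 0.32, edgeR adjusted p = 0.000178). Its partner Cenpl, from 13.2, 8.96, 11.7 and 6.34 CPM in Low to 4.79, 3.74, 3.62 and 2.67 CPM in High, fell less, by 1.44 log2 units (SE 0.25, edgeR adjusted p = 0.000939). Cenpc1, the scaffold that links CENP-A nucleosomes to the outer kinetochore, was at 26.4, 19.9, 27.0 and 17.6 CPM in Low. In High it was at 9.76, 11.4, 10.3 and 9.05 CPM, all below the Low libraries, with a difference of -1.17 (SE 0.18, edgeR adjusted p = 0.000477).

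Cenph, Cenpi, Cenpk and Cenpm encode the CENP-H/I/K/M complex, which sits between the CENP-A nucleosome and the outer layer. Cenph was at 8.99, 6.85, 8.20 and 4.08 CPM in Low and 1.97, 0.784, 1.68 and 0.669 CPM in High, and Cenpi at 13.2, 7.01, 12.7 and 4.65 CPM in Low and 3.78, 1.78, 2.02 and 1.24 CPM in High. Both sets of High values lay below all Low values, at -2.44 (SE 0.39, edgeR adjusted p = 0.000613) for Cenph and -2.12 (SE 0.40, edgeR adjusted p = 0.00176) for Cenpi. Cenpm differed by -1.91 (SE 0.26, edgeR adjusted p = 0.000257). Its High libraries of Female1, Female2 and Male1 stood close together, with Male2 above them, at 1.31, 1.31, 1.33 and 1.65 CPM, against 5.87, 4.84, 6.80 and 3.53 CPM in Low. Cenpk was the one gene that fell while its fractions overlapped, with 5.50, 3.11, 5.16 and 1.78 CPM in Low and 2.24, 1.92, 1.41 and 0.720 CPM in High. The High libraries of Female1 and Female2 were above the Low library of Male2. Its difference of -1.35 (SE 0.40, edgeR adjusted p = 0.0180) did not pass without the Low library of Female1 (-1.25, adjusted p = 0.0661) or without that of Male1 (-0.91, adjusted p = 0.0712).

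Cenpo, Cenpp, Cenpq and Cenpu encode the complex through which the inner kinetochore docks Polo-like kinase 1, and they fell by unequal amounts. Cenpp was at 2.72 to 6.28 CPM in Low and 0.463 to 1.16 CPM in High, and Cenpu at 2.63 to 5.81 CPM in Low and 0.257 to 1.24 CPM in High. Cenpp differed by -2.39 (SE 0.38, edgeR adjusted p = 0.000624) and Cenpu by -2.38 (SE 0.43, edgeR adjusted p = 0.00126), with at least 1 High library at 9 and 5 counts, respectively. In both genes all High libraries were below all Low libraries. Cenpq, at 5.98 to 11.6 CPM in Low and 0.978 to 3.63 CPM in High, differed by -1.82 (SE 0.36, edgeR adjusted p = 0.00205). Cenpo changed least of the 4, from 6.92, 5.14, 6.15 and 4.32 CPM in Low to 3.74, 3.40, 3.36 and 3.24 CPM in High, a difference of -0.71 (SE 0.20, edgeR adjusted p = 0.0150) that missed the threshold without the Low library of Male1 (-0.61, adjusted p = 0.0587). Exons of all 4 genes overlap those of genes on the other strand, over 22.5% of the exonic bases of Cenpo, 26.7% of Cenpu, 12.6% of Cenpp and 3.65% of Cenpq. Whether the counting used strand is not given in the sources used here, so reads of these partners could not be told apart. Exons of Cenpk (4.45%), Zwilch (5.93%) and Cdca8 (4.48%) overlap opposite-strand genes as well.

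Cenpt and Cenpw pair through histone folds, and CENP-T also recruits the Ndc80 complex. Cenpw was at 5.59, 3.30, 6.28 and 3.23 CPM in Low and at 3.20, 1.39, 1.60 and 0.206 CPM in High, where the lowest library had 4 counts. The groups did not overlap, and the difference was -1.61 (SE 0.56, edgeR adjusted p = 0.0380). That call was the least stable of the 31: the edgeR adjusted p was 0.0504 with DESeq2's size factors, at a difference of -1.53. It was also above the threshold after 5 of the 8 single libraries were left out in turn, from 0.0606 to 0.130 (Low Female1, Low Male1, Low Male2, High Female2 and High Male1). The differences in those 5 fits ran from -1.84 to -1.26. Cenpt was at 27.2, 13.9, 27.5 and 12.9 CPM in Low and 13.8, 11.8, 14.9 and 14.7 CPM in High, which overlapped, and its difference of -0.56 (SE 0.27, edgeR adjusted p = 0.116) did not pass.

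All 5 genes of the outer kinetochore fell, within a narrow span of -3.03 to -2.60 and with a median of -2.86. Knl1, the large scaffold to which Bub1 and BubR1 are recruited, was at 33.3, 17.4, 35.2 and 8.39 CPM in Low and 5.29, 1.61, 3.85 and 0.772 CPM in High. All High libraries lay below all Low libraries, and the difference was -3.03 (SE 0.60, edgeR adjusted p = 0.00219), or 8.15 times lower. Leaving out the Low library of Male1 gave -2.44. Ndc80 encodes the microtubule-binding subunit of its complex and was at 21.1, 13.1, 23.6 and 7.03 CPM in Low and 4.98, 1.44, 3.32 and 0.823 CPM in High, a difference of -2.62 (SE 0.54, edgeR adjusted p = 0.00281). Nuf2, its dimer partner, was at 28.4, 20.4, 30.9 and 11.7 CPM in Low and 5.52, 2.52, 4.08 and 0.514 CPM in High, a difference of -2.87 (SE 0.53, edgeR adjusted p = 0.00156). In both genes the High library of Male2 was the lowest of all 8 libraries. Spc24 and Spc25 anchor the complex to the inner kinetochore. Spc24 was at 19.4, 11.4, 19.2 and 6.25 CPM in Low and 4.05, 1.48, 1.98 and 0.514 CPM in High, and Spc25 at 23.5, 13.3, 22.3 and 6.43 CPM in Low and 4.79, 2.48, 3.09 and 0.720 CPM in High. They differed by -2.86 (SE 0.52, edgeR adjusted p = 0.00131) and -2.60 (SE 0.50, edgeR adjusted p = 0.00202), also without overlap.

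Expressed per kilobase of transcript, so that genes can be compared, the 4 subunits of the Ndc80 complex lay between 7.36 and 10.7 CPM per kb in Low and between 1.199 and 1.81 CPM per kb in High. The most abundant of them stood 1.46 times above the least abundant in Low and 1.51 times in High, over the means of 4 libraries.

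Among the genes of the fibrous corona, the outermost mesh of an unattached kinetochore, Cenpf and Cenpe fell steeply. Cenpf, a large coiled-coil protein of late cell cycle, was at 118, 67.0, 111 and 35.95 CPM in Low and 13.5, 5.36, 10.2 and 3.40 CPM in High. Every High library was below the lowest Low library, and the difference of -3.35 (SE 0.48, edgeR adjusted p = 0.000339) was the lowest of the 36, or 10.2 times lower. Cenpe, a kinesin motor that moves chromosomes to the spindle equator, was at 85.5, 53.7, 90.6 and 33.7 CPM in Low and 12.5, 3.96, 8.69 and 3.55 CPM in High, a difference of -3.20 (SE 0.46, edgeR adjusted p = 0.000327). The ROD-ZW10-Zwilch complex brings Mad1 and dynein to kinetochores, and its subunits gave different results. Zwilch was at 22.4, 12.7, 23.5 and 8.48 CPM in Low and 6.75, 2.79, 4.19 and 1.13 CPM in High, lower in all High libraries, at -2.21 (SE 0.48, edgeR adjusted p = 0.00396). Kntc1, which encodes ROD and is not one of the 36, fell by 3.32 log2 units (SE 0.46, edgeR adjusted p = 0.000253). Zw10, which also acts in traffic between endoplasmic reticulum and Golgi, was at 33.5, 24.8, 34.7 and 19.8 CPM in Low and 28.9, 37.7, 32.8 and 37.6 CPM in High. The 2 ranges overlapped, and its difference of 0.28 (SE 0.20, edgeR adjusted p = 0.277) did not pass.

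Of the 6 checkpoint genes 5 fell. Bub1b encodes BubR1, a part of the inhibitor of the anaphase-promoting complex, and was at 77.4, 58.0, 87.8 and 29.2 CPM in Low and 10.7, 5.14, 8.50 and 2.78 CPM in High. The High libraries were all lower than the Low libraries, with a difference of -3.22 (SE 0.44, edgeR adjusted p = 0.000247), or 9.33 times lower. Bub1, the kinase that marks centromeric chromatin for the guardians of cohesion, was at 32.4, 18.5, 32.5 and 10.8 CPM in Low and 7.68, 2.57, 4.805 and 0.978 CPM in High, a difference of -2.58 (SE 0.54, edgeR adjusted p = 0.00307). Ttk, the kinase that starts checkpoint signalling, was at 22.9, 16.2, 25.5 and 7.61 CPM in Low and 5.56, 2.52, 4.08 and 1.03 CPM in High, a difference of -2.46 (SE 0.49, edgeR adjusted p = 0.00219). In each of these 3 genes Male2 had the lowest library of both fractions.

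Mad2l1 encodes Mad2, which binds and restrains Cdc20. It was at 40.1, 26.4, 39.0 and 16.9 CPM in Low and 14.0, 5.96, 8.88 and 2.06 CPM in High, without overlap, at -2.03 (SE 0.46, edgeR adjusted p = 0.00507). Its partner Mad1l1, which holds Mad2 at kinetochores and lies at nuclear pores in interphase, was at 39.8, 28.3, 37.8 and 24.4 CPM in Low and 22.0, 22.8, 21.9 and 30.4 CPM in High. The High libraries of Female1, Female2 and Male1 were below all Low libraries, the High library of Male2 was not, and the difference of -0.43 (SE 0.20, edgeR adjusted p = 0.102) did not pass. Bub3, which brings Bub1 and BubR1 to Knl1, fell by a smaller amount. It was at 72.0, 58.0, 80.2 and 51.1 CPM in Low and 45.3, 41.9, 41.7 and 45.0 CPM in High, so that all High libraries were lower, and the difference was -0.59 (SE 0.16, edgeR adjusted p = 0.0133).

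All 4 genes of the chromosomal passenger complex fell, from -3.33 to -2.10. Incenp, the scaffold of the complex, was at 140.2, 74.7, 158 and 44.8 CPM in Low and 14.3, 7.36, 10.9 and 8.95 CPM in High. Every High library was below the lowest Low library, that of Male2, and the difference was -3.33 (SE 0.41, edgeR adjusted p = 0.000134), or 10.1 times lower. Aurkb, the Aurora B kinase, was at 29.4, 19.1, 32.4 and 10.2 CPM in Low and 6.14, 1.96, 4.27 and 1.59 CPM in High, a difference of -2.70 (SE 0.48, edgeR adjusted p = 0.00115). Birc5, which encodes survivin, was at 36.3, 21.9, 32.6 and 14.1 CPM in Low and 9.26, 3.35, 5.49 and 1.90 CPM in High, a difference of -2.41 (SE 0.44, edgeR adjusted p = 0.00131). Cdca8, which encodes borealin, was at 62.6, 40.7, 64.5 and 28.7 CPM in Low and 15.2, 8.40, 13.2 and 9.05 CPM in High, a difference of -2.10 (SE 0.30, edgeR adjusted p = 0.000331). In each of the 4 genes all High libraries were below all Low libraries. The most abundant subunit per kilobase stood 3.39 times above the least abundant in Low and 5.07 times in High, a wider spread than among the Ndc80 subunits.

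**Figure D2:**
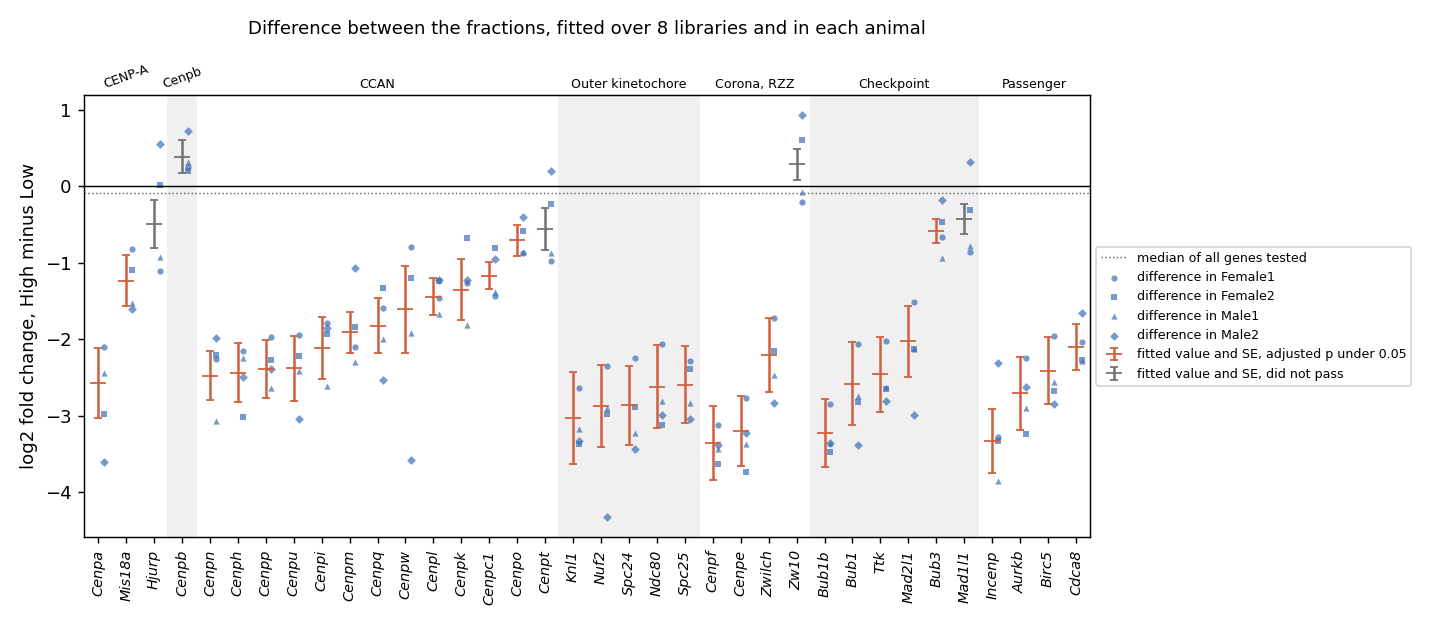
Difference between Cyto-ID High and Low (log2 scale, High minus Low) for each of the 36 genes by role: a dash with a bar of 1 standard error for the value fitted over 8 libraries (red where it passed, grey where it did not) and a blue point for each animal. The dotted line is the median of all genes tested, -0.09. Fitted values of the outer kinetochore genes lie between -3.03 and -2.60, and those of Zw10 (0.28) and Cenpb (0.39) lie above 0.

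The 5 genes that did not pass were Cenpt, Hjurp, Mad1l1, Zw10 and Cenpb, one each from 5 of the 7 role groups. Per kilobase of transcript, Cenpb was the third of the 36 in Low at 37.7 CPM per kb, after Incenp (39.6) and Cdca8 (38.9). In High it was the first, at 49.5, followed by Bub3 at 19.6, Hjurp at 12.8, Zw10 at 11.97 and Mad1l1 at 9.20, while Incenp was at 3.93. The 5 genes held 26.0, 33.99, 26.0 and 41.4% of the CPM summed over the 36 genes in the Low libraries and 55.2, 73.1, 64.0 and 81.1% in the High libraries. The scaling bears on all 5, and single libraries on Hjurp, Cenpt and Mad1l1. Scaling to total counts in place of TMM lowers the median of all genes by 0.55 on the log2 scale. The 36 genes are then lower in 34 cases: Hjurp (-1.06, adjusted p = 0.0189), Cenpt (-1.11, adjusted p = 0.00891) and Mad1l1 (adjusted p = 0.00109) pass, while Zw10 and Cenpb change sign (-0.29 and -0.21) without passing. Over all genes, TMM gave 4385 lower and 4055 higher, and total counts gave 8514 lower and 2194 higher. Under TMM, Hjurp (-0.73, adjusted p = 0.0200), Cenpt (-0.74, adjusted p = 0.0280) and Mad1l1 (-0.56, adjusted p = 0.0194) passed once the Low library of Male2 was left out.

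Level varied between animals more for these genes than for all genes tested. The coefficient of variation over the 4 Low libraries had a median of 37.9% over the 36 genes and 16.7% over all genes tested, and over the High libraries 50.3% and 21.3%. The 31 genes that fell summed to 1059, 674, 1104 and 433 CPM in Low and to 247, 142, 189 and 112 CPM in High. Among Low libraries, both animals numbered 2 were below both numbered 1 for 35 of the 36 genes, the exception being Cenpb, against 25.2% of all genes tested. Male2 was the lowest for 35 genes (24.5% of all genes), and Male1 was the highest for 23 (22.3%) and Female1 for 12 (27.0%). Among High libraries Male2 was the lowest for 27 genes (29.2% of all genes) and Female1 the highest for 29 (25.7%). Mki67, a general marker of cycling cells outside the 36, was highest in Female1 and lowest in Male2 in both fractions, whereas Male1 was the highest Low library for most of the 36. It was at 356, 233, 324 and 126 CPM in Low and 53.0, 19.8, 39.4 and 11.2 CPM in High. What the numbers in the animal names stand for is not given in the sources used here. The suprabasal sum given above was higher in both Low libraries numbered 2 (19713 and 25811 CPM) than in those numbered 1 (12879 and 8777 CPM). It was also higher in both High libraries numbered 2 (187552 and 243180 CPM) than in those numbered 1 (141584 and 143349 CPM). The part of this sum in the order of the animals was not tested.

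**Figure D3:**
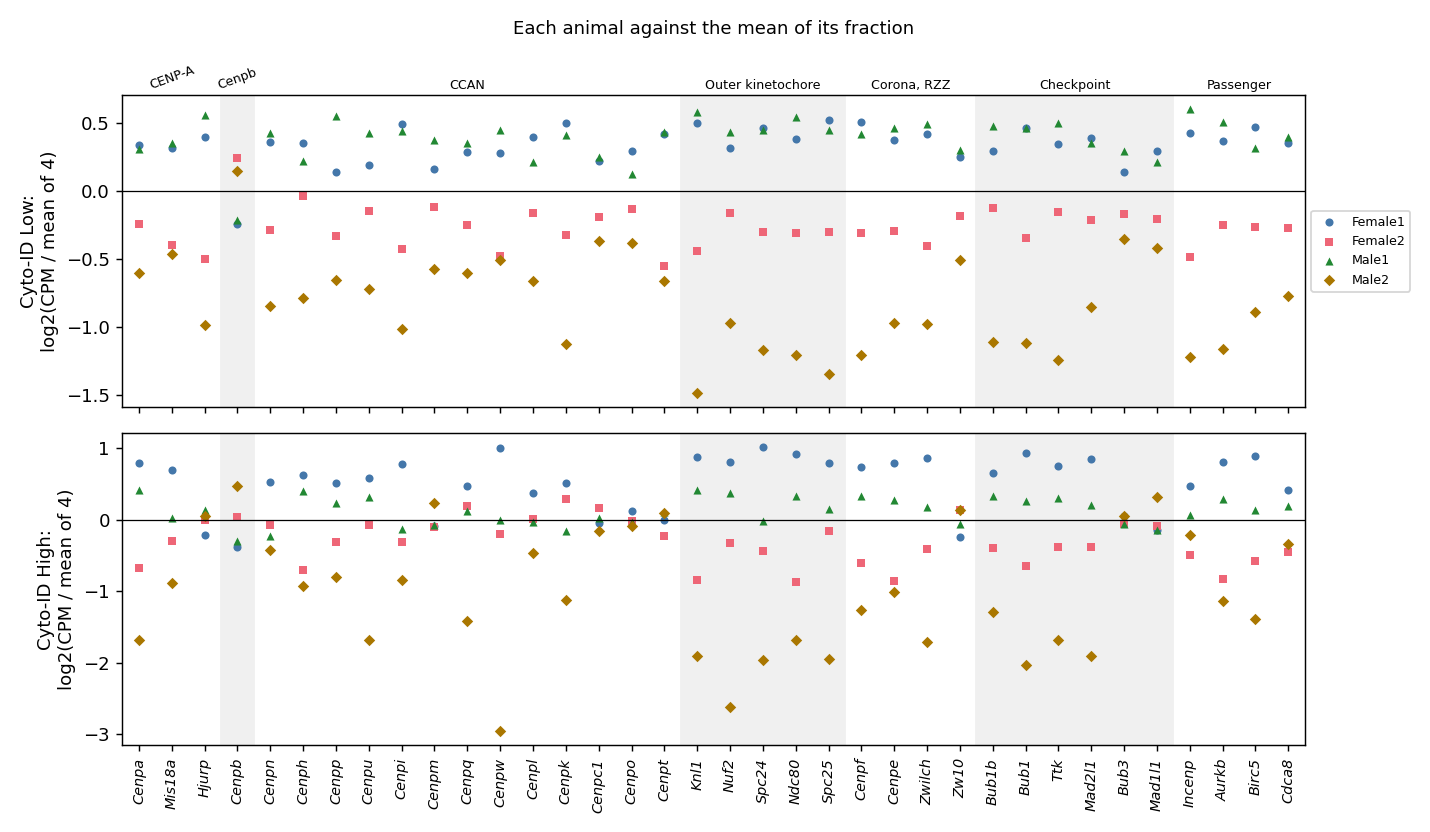
Level of each of the 36 genes in each animal relative to the mean of 4 libraries of its fraction (log2 scale), for Cyto-ID Low above and Cyto-ID High below. In Low, Female2 and Male2 lie below Female1 and Male1 for 35 of the 36 genes (25.2% of all genes tested), and in High, Female1 is the highest for 29 (25.7%) and Male2 the lowest for 27 (29.2%).

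Within single animals (High minus Low, log2 CPM with a prior count of 2), some differences were close to each other and some were not. Cenpf differed by -3.12, -3.63, -3.43 and -3.38 and Bub1b by -2.85, -3.48, -3.36 and -3.36. Cenpw ranged more widely, at -0.79, -1.20, -1.92 and -3.58, and Hjurp was at -1.11, 0.01, -0.92 and 0.55, below 0 in the animals numbered 1 only. A model with an interaction between fraction and label number, added after the values were seen, called 0 genes of 17344 (0%), and 2220 reached 0.05 before adjustment, 7 of the 36 among them. Hjurp had the smallest p of the 36 there, with an interaction of 1.27 on the log2 scale (SE 0.28, unadjusted p = 0.0011, edgeR adjusted p = 0.351). For sex, in the fit without the animal block, the interaction passed for 0 genes among all tested (0%). An unadjusted p under 0.05 was reached by 19 genes, fewer than chance alone would give, and none was among the 36. With the animal as a replicate block 0 genes passed, and 1 of the 36, Cenpw, had an unadjusted p under 0.05 (interaction of -1.70 on the log2 scale, male minus female). DESeq2 and limma-voom also called 0 of the 36. There were 2 animals of each sex, so these fits cannot show that the difference is alike in both sexes.

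Genes that work next to these 36 were counted in 70 further genes, grouped by their complexes, of which 47 fell and 5 rose with a median of -0.90. Under total counts 61 fell and 3 rose. Of the Mis12 complex, which bridges inner and outer kinetochore, and Zwint, all 5 genes fell. Dsn1 (-2.67, SE 0.39, edgeR adjusted p = 0.000387) and Nsl1 (-2.68, SE 0.58, edgeR adjusted p = 0.00369) differed most, whereas the calls for Zwint (-0.77) and Mis12 (-0.50) were lost in several alternatives. Among 13 genes of the Ska complex and of microtubule attachment, 9 fell and 2 rose. Kif2c, a kinesin that depolymerises microtubules, fell by 3.29 log2 units (SE 0.42, edgeR adjusted p = 0.000152), while Clasp1, which binds growing microtubule ends, rose by 1.64 log2 units (SE 0.15, edgeR adjusted p = 2.58e-05). Of 9 other CENP and Mis18 genes 8 fell, with a median of -0.91. Of 11 genes of shugoshin, Polo-like kinase 1 and Aurora partners 8 fell and 2 rose. Plk1, the Polo-like kinase, was at 36.04, 27.9, 39.3 and 14.4 CPM in Low and 6.02, 3.09, 4.65 and 2.01 CPM in High, a difference of -2.90 (SE 0.38, edgeR adjusted p = 0.000195).

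The anaphase-promoting complex and its brakes, which the checkpoint acts on, fell in 12 of 23 genes, with a median of -0.50. Under total counts 21 of the 23 were lower, with a median of -1.07. Cdc20, the activator that Mad2 and BubR1 bind, was at 149, 94.0, 144 and 62.5 CPM in Low and 21.6, 8.75, 15.4 and 8.95 CPM in High, with all High libraries lower, at -3.03 (SE 0.37, edgeR adjusted p = 0.000122). Espl1, which encodes separase, fell by 2.92 log2 units (SE 0.44, edgeR adjusted p = 0.000432), and Trip13, which takes apart the checkpoint's inhibitory complex, by 1.42 log2 units (SE 0.27, edgeR adjusted p = 0.00156). Pttg1, which encodes securin, was at 0.35 (SE 0.14, edgeR adjusted p = 0.0592), and it passed as higher under 7 of the alternatives, but was at -0.21 under total counts. Of 9 cohesin genes 5 fell and 1 rose, Wapl, which releases cohesin from chromosomes (0.52, SE 0.16, edgeR adjusted p = 0.0219). The call for Wapl was lost in 5 alternatives, and under total counts it was at -0.05. Wider lists of the cell cycle were lower too: 38 of 42 S phase genes fell and 1 rose (median -1.53), and 30 of 34 G2 and M phase genes outside the 36 fell and 2 rose (median -2.72). The median of the 36 genes, -2.29, lay between those of the 2 lists.

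**Figure D4:**
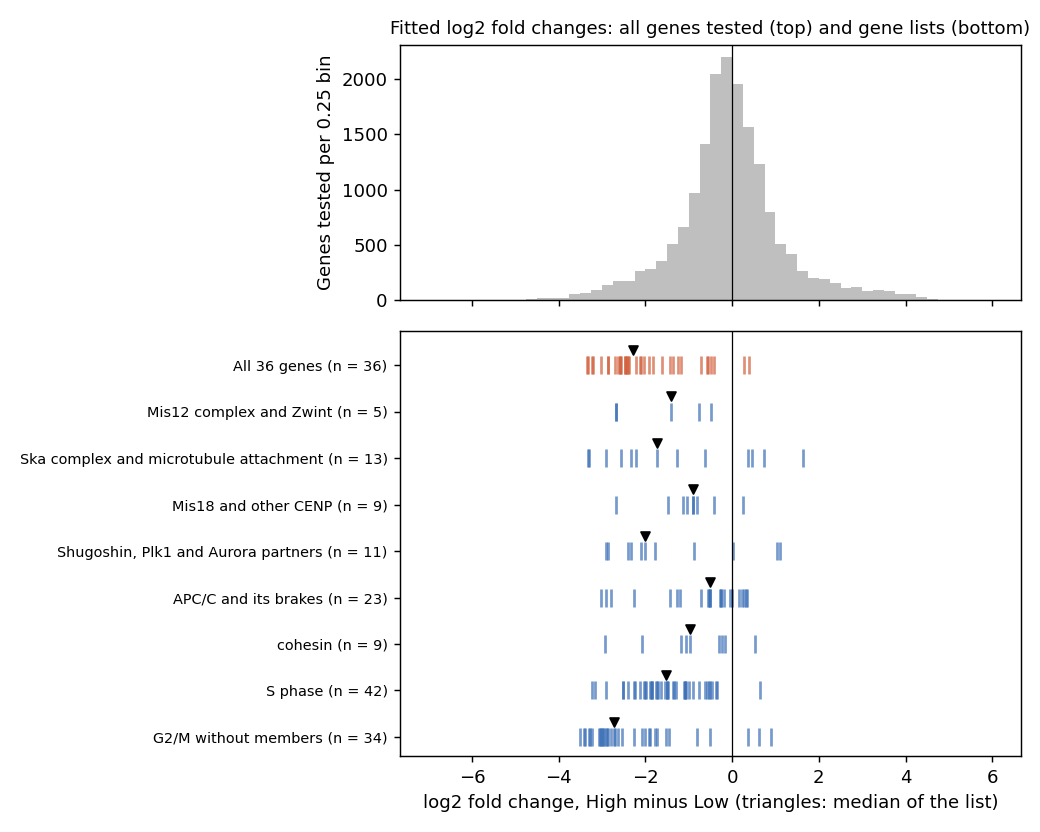
Fitted differences between Cyto-ID High and Low (log2 scale): a histogram of all 17344 genes tested above, and below it 1 line per gene in the 36 genes (red) and in the related and cell cycle lists (blue), with a triangle at each median. The list of G2 and M phase genes outside the 36 has the lowest median of these lists at -2.72, and that of the anaphase-promoting complex (APC/C) the highest at -0.50.

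Promoter sequences are shown because short words known from promoters of cell cycle genes could be searched in them. RefSeq promoters of GRCm38.p6, from 250 bases before to 50 bases after the start, were at hand for 32 of the 36 genes, the others being Aurkb, Incenp, Spc24 and Zwilch. Each window printed runs from 200 bases before the start to the 30th base of the transcript, 5′ to 3′ along the gene's strand. Capitals mark matches on either strand to TTTGAA (the CHR element, known from genes of G2 and M phase), CCAAT (bound by NF-Y), and to 4 E2F words, TTCCCGC with its variant TTCGCGC and TTGCCGC with its variant TTGGCGC. The last of these can overlap CCAAT where CCAAT is on the other strand, and the other words are separate. The first 4 are genes that fell and hold both TTTGAA and CCAAT here, and the last 2 are the genes with the highest differences.
Cenpf chr1:189688057-189688286 minus strand: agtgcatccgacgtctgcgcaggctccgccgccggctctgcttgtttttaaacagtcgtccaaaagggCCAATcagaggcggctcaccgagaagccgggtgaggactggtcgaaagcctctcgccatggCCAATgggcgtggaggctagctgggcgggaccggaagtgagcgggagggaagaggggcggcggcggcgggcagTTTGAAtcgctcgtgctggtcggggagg
Spc25 chr2:69206184-69206413 minus strand: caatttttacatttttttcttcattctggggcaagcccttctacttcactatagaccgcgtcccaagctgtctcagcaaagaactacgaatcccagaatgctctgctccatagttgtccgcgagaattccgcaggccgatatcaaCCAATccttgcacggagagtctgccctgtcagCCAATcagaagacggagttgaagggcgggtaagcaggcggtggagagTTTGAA
Cenpa chr5:30666686-30666915 plus strand: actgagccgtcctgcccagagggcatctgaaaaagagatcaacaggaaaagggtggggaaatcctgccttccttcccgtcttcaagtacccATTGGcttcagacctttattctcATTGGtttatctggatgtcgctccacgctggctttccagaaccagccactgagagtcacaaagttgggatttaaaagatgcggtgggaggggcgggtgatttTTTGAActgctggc
Cenpn chr8:116921540-116921769 plus strand: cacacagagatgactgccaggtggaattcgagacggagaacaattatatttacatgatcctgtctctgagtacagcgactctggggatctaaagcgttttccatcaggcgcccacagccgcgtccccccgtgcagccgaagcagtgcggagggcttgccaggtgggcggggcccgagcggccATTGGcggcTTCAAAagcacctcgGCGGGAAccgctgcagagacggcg
Zw10 chr9:49055381-49055610 plus strand: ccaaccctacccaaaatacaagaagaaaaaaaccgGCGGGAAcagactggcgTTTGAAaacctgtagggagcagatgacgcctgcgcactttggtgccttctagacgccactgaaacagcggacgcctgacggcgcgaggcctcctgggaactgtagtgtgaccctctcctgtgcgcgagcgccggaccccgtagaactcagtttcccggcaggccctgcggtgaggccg
Cenpb chr2:131180038-131180267 minus strand: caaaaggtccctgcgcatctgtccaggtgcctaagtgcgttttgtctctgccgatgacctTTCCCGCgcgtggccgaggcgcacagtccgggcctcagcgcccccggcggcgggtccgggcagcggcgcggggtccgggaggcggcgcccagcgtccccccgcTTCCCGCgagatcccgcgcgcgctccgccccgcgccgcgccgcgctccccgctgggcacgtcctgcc
In Cenpf, Spc25 and Cenpa, TTTGAA lies just downstream of the start, and in Cenpn its reverse complement lies just upstream. Zw10 holds it as well, farther from the start, and Cenpb holds only E2F words in this window.

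Over the full promoters, with any entry of a gene counted, TTTGAA was present in 14 of the 32 genes (43.75%). It was in 14.84% of the 11257 genes tested that had a promoter entry and in 20.23% of all 27025 genes with an entry. Within 50 bases of the start it was in 12 of 32 (37.5%), against 3.86% of the genes tested and 5.72% of all genes with an entry. CCAAT was in 20 of 32 (62.5%) against 42.8% of the genes tested, and an E2F word in 10 of 32 (31.25%) against 18.57%. Of the 18 genes with a promoter that fell at least 4-fold, 9 held TTTGAA near the start, 12 held CCAAT and 2 held an E2F word. Of the 9 that fell by less, 2 held TTTGAA near the start, 7 held CCAAT and 6 an E2F word. Of the 5 that did not pass, 1 held TTTGAA near the start, 1 held CCAAT and 2 held an E2F word. A match is a description of letters in the window and says nothing of binding in these cells.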

How the data were processed

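Bulk RNA-seq libraries of 8 sorted samples, 4 per Cyto-ID fraction, were compared. The deposited table holds whole-number counts per gene symbol, and STAR 2.7.3, DESeq2 and GRCm38 are named in the submitters' processing notes. The counting tool, its strand setting and the annotation used are not given in the sources used here.

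Genes with low counts were removed with edgeR's filterByExpr, and 17344 of 55276 symbols remained. Library totals were 26285150 to 29301054 counts. Their TMM factors ran from 1.16 to 1.30 in Low and from 0.68 to 0.94 in High. Counts were fitted with edgeR 4.0.16 (R 4.3.3), quasi-likelihood, with fraction and sex, and p-values were adjusted over all genes tested at 0.05. Libraries of the same fraction differed by more than counting noise in every pair (chi-square per degree of freedom 17.7 to 79.5). The labels name the animal of each library, so Low and High are paired. Deviations of the 2 libraries of an animal from their group means correlated at 0.43, 0.32, -0.02 and 0.28 for Female1, Female2, Male1 and Male2, against -0.37 to 0.35 for libraries of different animals, so that these values alone do not separate same from different animals. Alternatives were DESeq2 1.42.0, limma-voom 3.58.1, other scalings and filters, the animal as a replicate block, and leaving out libraries. Those on the number in the animal names were added after seeing the data.

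The 36 genes and the other lists were chosen with earlier results of these data known. All 36 genes are named. From each related or cell cycle list at most the 2 lowest and 2 highest genes were eligible to be named, besides Mki67, Cdc20, Plk1 and Trip13. Transcript lengths and exon overlaps came from GENCODE M21 (GRCm38), with the transcript of the longest coding sequence per gene.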

Additional observations from a re-analysis of the deposited data

Results flagged for a closer look

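In 74 groups of 4 libraries tested for a single library far from the other 3 (Dixon's test), 2 stood out, where chance gives about 1 in 20. Cenpm in the High library of Male2 was at 1.65 CPM, above 3 libraries close to each other (ratio 0.92). Mad1l1 in the same library was at 30.4 CPM (ratio 0.90). The cause was not tested.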

How the results depend on the processing

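Between 27 and 34 of the 36 genes passed as lower over all alternatives, and all 31 that passed kept a negative difference in each alternative that tested them. With the animal as a replicate block, 31 passed and every one of the 36 calls was unchanged, while the count over all genes went from 8440 to 9336. Leaving out 1 library at a time gave 28 to 33 genes lower and medians from -2.59 to -1.89. Scaling by total counts moved the median to -2.79 and reversed Cenpb (-0.21), Zw10 (-0.29) and, outside the 36, Cenpx (-0.33), Anapc2 (-0.28), Pttg1 (-0.21) and Wapl (-0.0526). Requiring at least 10 counts in every library gave 29 genes lower, since it removed Cenpp, Cenpu and Cenpw from the test and Mad1l1 passed (-0.44, adjusted p = 0.0473). Without any filter 34 passed, Hjurp, Cenpt and Mad1l1 among them. In that fit the edgeR adjusted p of Knl1 was 4.55e-39 at a difference of -3.07, against 0.00219 at -3.03 with the filter. Calls made without the filter are therefore not comparable with the others. Mad1l1 also passed without the High library of Male2 (-0.56, adjusted p = 0.0407). Alternatives on the number in the animal names were chosen after seeing the data. With that number as a covariate 1 gene passed as higher, Cenpb (0.38, adjusted p = 0.0332). In the animals numbered 2 alone 1 passed as higher, Zw10 (0.76, adjusted p = 0.0174), and Hjurp (0.27), Mad1l1 (0.0194) and Pds5a (0.0335) were above 0. The calls of Cenpk (-0.87, adjusted p = 0.244), Cenpo (-0.50, adjusted p = 0.186), Cenpw (-1.99, adjusted p = 0.0637) and Bub3 (-0.32, adjusted p = 0.177) were lost there. In the animals numbered 1 alone Hjurp (-0.96), Cenpt (-0.88) and Mad1l1 (-0.78) passed as lower, while Zw10 was at -0.0948. The causes were not tested. Low counts limit Cenpw, Cenpu, Cenpp, Nuf2 and Spc24, which had 4, 5, 9, 10 and 10 counts in the High library of Male2.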
